A study of Rattus norvegicus with 20 samples.

Results

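Platelet-derived growth factor (PDGF) signalling and cardiac fibroblasts are represented here by 9 genes. They are the ligand genes Pdgfa, Pdgfb and Pdgfc, the receptor genes Pdgfra and Pdgfrb, and the fibroblast marker genes Ddr2, Pdpn, S100a4 and Fbln2. The genes were taken by name with their levels known. Pdgfrb and Pdpn were chosen by the measured difference in their processed signal between 24 h and 6 h. Gene names in the array files gave 11 probes for 8 of the genes. Ddr2 came from a probe listed as LOC685781, which the RefSeq gene table (assembly GRCr8) assigns to Ddr2. This made 12 of the 41012 probes on the array and 9 of the 27754 genes that had a kept probe, that is, a probe that all arrays of 1 group or more read well above background. All 12 probes were kept, but Pdgfb and Pdgfc passed only through celecoxib 1/5 for 6 h.

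RNA was taken from primary heart cultures of newborn rats, labelled as cardiomyocyte, and hybridised to single-colour Agilent arrays. After a day of growth the cultures were left untreated (2 arrays) or received celecoxib, an inhibitor of cyclo-oxygenase 2. Celecoxib was given at reference concentrations of 1, 1/5 or 1/25 for 6 h or 24 h, with 3 arrays in each of the 6 groups. Rat strain, vehicle, molar concentration and the time at which untreated cultures were taken are not given in the sources used here, so neither celecoxib time has an untreated culture known to be of its age. The labels do not say whether replicates came from separate cultures. The p-values therefore measure only the spread between samples, and that spread may be technical. Cardiomyocyte markers were present, with 10 of 10 tested genes well above background on each array, and so were fibroblast markers, with at least 11 of 14. In such mixed cultures, fewer cells of a type and less RNA per cell cannot be told apart.

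PDGF ligands are secreted dimers that bind the receptor tyrosine kinases PDGFR-alpha and PDGFR-beta, which then recruit adaptor proteins and activate the MAP kinase, phosphoinositide 3-kinase and phospholipase C pathways. In the heart PDGFR-alpha is typical of fibroblasts and PDGFR-beta of pericytes and vascular smooth muscle, although cultured fibroblasts carry both. DDR2 is a collagen-binding receptor tyrosine kinase, podoplanin (Pdpn) a membrane glycoprotein of lymphatic endothelium, epicardium and activated fibroblasts, S100A4 a calcium-binding protein also called fibroblast-specific protein, and fibulin-2 (Fbln2) a secreted matrix glycoprotein.

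The probes themselves set what could be measured, so those that decide how a value may be read are shown, each 60 bases long except for Pdpn, where the first 30 bases are printed. Positions are those in the array files, whose header names build rn3. S100a4 had 3 probes, and 1 of them lies on the opposite strand. Capitals in the first pair mark a run of 24 bases that is the reverse complement of the run in the other probe, although the positions listed in the files for this pair do not overlap.
S100a4 A_44_P1060286: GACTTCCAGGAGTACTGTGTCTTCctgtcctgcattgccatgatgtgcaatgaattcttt
S100a4 A_44_P332021: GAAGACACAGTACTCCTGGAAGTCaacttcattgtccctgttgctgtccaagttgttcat
Pdpn A_44_P443751: gcatagaaaaatggtgcaaaaaccgagaca
Fbln2 A_44_P374795: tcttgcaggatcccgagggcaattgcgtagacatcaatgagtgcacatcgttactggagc
Pdgfa A_44_P322910: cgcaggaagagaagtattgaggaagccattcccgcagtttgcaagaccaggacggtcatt

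The first S100a4 probe is listed at chr2:182836604-182836663 on the plus strand and the second at chr2:182837227-182837286 on the minus strand. The Pdpn probe is at chr5:162153239-162153298 on the minus strand. The Fbln2 probe covers chr4:125677685-125678668 on the plus strand, a span of 984 bases, and the Pdgfa probe chr12:16190596-16192810 on the plus strand, a span of 2215 bases. Both spans are longer than the probe, so these probes cross at least 1 splice junction.

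Scan day divided the 6 h arrays. Both untreated arrays, all 9 arrays of 24 h and 3 of the 6 h arrays (celecoxib 1 replicates 1 and 2, celecoxib 1/25 replicate 1) were scanned on day 1, and the other 6 arrays of 6 h, including all of celecoxib 1/5, on day 2. The arrays lay on 6 slides, and untreated cultures shared a slide only with celecoxib 1 for 6 h replicates 1 and 2. On each array 63.6% to 83.2% of probes were well above background and 5.74% to 9.21% were saturated. Untreated replicate 1 and celecoxib 1/25 for 6 h replicate 3 had the lowest mean correlations with the other arrays, at 0.887 and 0.888. Precision is limited by the number of arrays, and all 6 comparisons with untreated rest on the same pair of untreated arrays.

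Pdgfrb, which encodes PDGFR-beta, was lower at 6 h and higher at 24 h than in untreated cultures on every array. Levels are log2 values relative to the 75th percentile of each array. Untreated cultures read 0.64 and 0.44. At 6 h the levels were 0.04, 0.28 and -0.28 with celecoxib 1, -0.28, -0.14 and -0.16 with 1/5, and -0.34, -0.26 and -1.0 with 1/25. At 24 h they were 1.63, 1.54 and 0.71 with celecoxib 1, 1.05, 1.19 and 1.00 with 1/5, and 1.46, 1.00 and 1.36 with 1/25. The 9 arrays of 6 h all lay below both untreated arrays and the 9 arrays of 24 h all above them, so the 3 sets did not overlap. Of all genes, 8.42% lay below untreated on all 6 h arrays and 4.16% above untreated on all 24 h arrays.

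The 24 h level of Pdgfrb exceeded the 6 h level by 1.28 ± 0.28 on the log2 scale with celecoxib 1 (SE, 3 arrays against 3), by 1.27 ± 0.28 with 1/5 and by 1.81 ± 0.28 with 1/25. The mean over the concentrations was 1.45 ± 0.16, or 2.74-fold. These are descriptions without a test, since the gene was chosen for this difference. Among all genes with a value on each of these arrays, 0.633% were higher on every 24 h array than on every 6 h array. The median gene moved by 0.10 between the times, which left Pdgfrb 1.35 above it.

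Against untreated, Pdgfrb fell with celecoxib 1/25 for 6 h, by 1.07 ± 0.31 on the log2 scale (3 arrays against 2, adjusted p = 0.0498 in limma), or 2.10-fold. This comparison called 5.99% of all genes, 3.75% as lower. Its 6 h arrays were among those that Pdgfrb was chosen by, and the p-value does not allow for that choice. The comparison was the only one with untreated that Pdgfrb passed. The median of all genes in it was -0.18, and relative to that median the change was -0.89. With each array scaled by its median in place of its 75th percentile, the median of all genes moved to 0.24 and Pdgfrb read -0.65 and did not pass. The change with scan day as a block was -0.83 (adjusted p = 0.0996), and within scan day 1, with 1 treated array, -0.88 (adjusted p = 0.130). The call was kept without 5 of the 20 arrays in turn (celecoxib 1 for 6 h replicates 2 and 3, celecoxib 1/25 for 6 h replicates 1 and 2, and celecoxib 1 for 24 h replicate 3) and lost without each of the others, with adjusted p from 0.0248 to 0.384. Without untreated replicate 1 the value was -0.97, and without celecoxib 1/25 for 6 h replicate 3 it was -0.84. Celecoxib 1 and 1/5 for 6 h read -0.53 (adjusted p = 0.366) and -0.74 (adjusted p = 0.155). At 24 h the differences were 0.75, 0.54 and 0.73 for celecoxib 1, 1/5 and 1/25, with adjusted p of 0.378, 0.436 and 0.366.

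Pdpn followed a similar course across the arrays. Untreated cultures read 0.94 and 0.72 on the log2 scale. Its 6 h levels were 0.49, -0.56 and -0.34 with celecoxib 1, -0.33, -0.05 and -0.46 with 1/5, and 0.18, -0.30 and -0.52 with 1/25. At 24 h they were 1.49, 1.65 and 0.95 with celecoxib 1, 0.74, 1.06 and 0.78 with 1/5, and 1.53, 0.85 and 1.22 with 1/25. Every 6 h array lay below both untreated arrays, every 24 h array lay above every 6 h array, and 6 of the 9 arrays of 24 h lay above both untreated arrays. Of all genes, 8.42% lay below untreated on all 6 h arrays, and 0.633% were higher on every 24 h array than on every 6 h array. The Pdpn difference between 24 h and 6 h was 1.5 ± 0.30 with celecoxib 1 (SE, 3 arrays against 3), 1.14 ± 0.30 with 1/5 and 1.41 ± 0.30 with 1/25. The mean over concentrations was 1.35 ± 0.17, or 2.55-fold, and 1.25 relative to the median gene. As for Pdgfrb this is a description without a test.

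**Figure D1:**
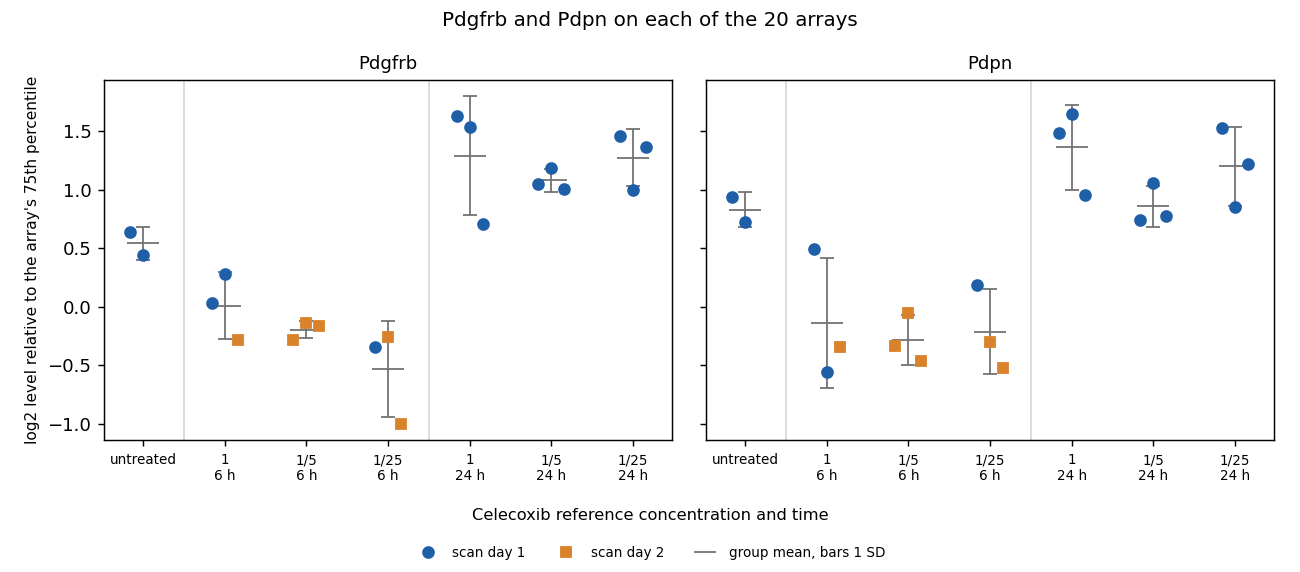
The log2 level relative to the 75th percentile of each array (vertical axis) is plotted for Pdgfrb and Pdpn on each of the 20 arrays, by celecoxib concentration and time (horizontal axis), with blue circles for scan day 1, orange squares for scan day 2, and the group mean with 1 SD in grey. Pdgfrb is below both untreated arrays (0.64 and 0.44) on all 9 arrays of 6 h and above both on all 9 arrays of 24 h, and every 24 h value of Pdpn exceeds every 6 h value. Of all genes, 8.42% lay below untreated on all 6 h arrays and 4.16% above untreated on all 24 h arrays. For 0.633% every 24 h array was above every 6 h array.

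Pdpn did not pass against untreated in any comparison, and it too was chosen by values that include its 6 h arrays. With celecoxib 1/5 for 6 h it read -1.11 ± 0.34 on the log2 scale (3 arrays against 2, adjusted p = 0.0557 in limma). With celecoxib 1/25 for 6 h it read -1.04 ± 0.34 (adjusted p = 0.0667). Relative to the median gene these were -0.92 and -0.86. The value for celecoxib 1/5 passed with quantile normalisation (-1.23, adjusted p = 0.0241), with probes limited to those well above background on all 20 arrays (adjusted p = 0.0381), and with only the 2 groups compared in the fit (adjusted p = 0.0355). These settings called 12.7%, 10.2% and 12.7% of all genes in this comparison, against 6.53% without these changes. With scan day as a block the Pdpn value was -0.66 (adjusted p = 0.373). At 24 h the differences were 0.53, 0.03 and 0.37 for celecoxib 1, 1/5 and 1/25.

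Pdgfrb and Pdpn were the only members of the 9 whose 24 h arrays all lay above their 6 h arrays, as was so for 0.633% of all genes. Both were chosen by this difference. The values below use the same arrays again and are a description. Since 6 of the 9 arrays of 6 h were scanned on a separate day from all 24 h arrays, the difference was also taken within scan day 1, between 9 arrays of 24 h and 3 of 6 h. There the means differed by 1.22 for Pdgfrb and by 1.1 for Pdpn, and the arrays of the times did not overlap for either gene. Within that day 6.25% of all genes were higher on every 24 h array. Over all 20 arrays with scan day as a block, the mean difference over concentrations was 1.21 ± 0.23 for Pdgfrb and 1.05 ± 0.25 for Pdpn. At 1/5, which has no 6 h array on day 1, the blocked values were lower, at 0.91 for Pdgfrb and 0.69 for Pdpn.

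**Figure D2:**
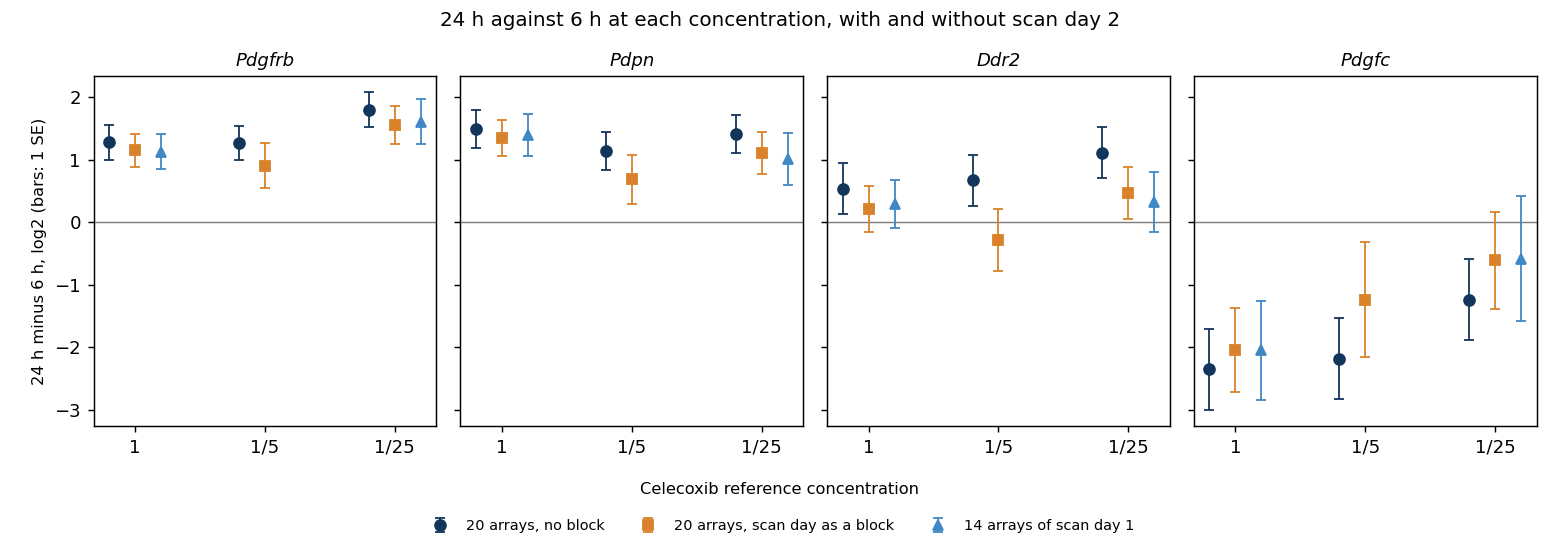
The 24 h minus 6 h difference on the log2 scale (vertical axis, bars 1 SE) is plotted at each celecoxib concentration (horizontal axis) for Pdgfrb, Pdpn, Ddr2 and Pdgfc, from all 20 arrays (circles), with scan day as a block (squares) and from the 14 arrays of scan day 1 (triangles, no value at 1/5). Pdgfrb and Pdpn stay above 0 in each setting, with blocked means of 1.21 and 1.05, while the mean of Ddr2 over the concentrations falls to near 0 with the block. Pdgfrb and Pdpn were chosen by their difference between the times on these arrays.

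Concentration did not separate the levels of these genes in any test. At 6 h all arrays of celecoxib 1/5 were scanned on day 2, while those of 1 and 1/25 were split between the days. At 24 h all arrays of 1/25 lay on the same slide. Concentration therefore cannot be fully told apart from scan day or slide. Differences between concentrations at the same time ran from -0.19 to 0.54 on the log2 scale for Pdgfrb, with 95% intervals reaching from -0.78 to 1.13. For Pdpn they ran from -0.34 to 0.50, with intervals reaching from -0.98 to 1.14. The change of the effect of concentration (1 against 1/25) between 24 h and 6 h was -0.53 ± 0.39 for Pdgfrb and 0.09 ± 0.43 for Pdpn, and neither passed in limma (adjusted p = 1 for both).

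The genes whose levels across the 20 arrays were most like those of Pdgfrb were Pth1r, the parathyroid hormone receptor (Pearson r = 0.934), Dhrs3, a retinal reductase (0.927), Tcf19 (0.922), Sipa1l1 (0.911) and Gjb2, the gap junction protein connexin 26 (0.911), out of 7176 candidates that had a symbol and were well above background and unsaturated on all arrays. Pdpn ranked next at 0.909. On the 14 arrays of scan day 1 these correlations were 0.875, 0.880, 0.876, 0.794 and 0.829, and 0.814 for Pdpn. For Pdpn the most alike were Rnaseh2a, a ribonuclease H2 subunit (0.922), Racgap1, a GTPase activator of cytokinesis (0.920), Sipa1l1 (0.917), Dpp7, a dipeptidyl peptidase (0.911), and Qars1, glutaminyl-tRNA synthetase (0.910), and Pdgfrb ranked next. The points share the treatment groups, the scaling of each array and the scan days, and the correlations are a description.

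Pdgfra, which encodes PDGFR-alpha, was bright in every culture and saturated on 15 of the 20 arrays, so its changes are compressed. Untreated cultures read 2.08 and 2.56 on the log2 scale. At 6 h the levels were 2.77, 2.54 and 2.03 with celecoxib 1, 1.87, 1.86 and 1.94 with 1/5, and 3.1, 2.00 and 2.38 with 1/25. The 24 h arrays ran from 2.27 to 2.82 with a median of 2.68, and all 9 were saturated. The 6 h arrays of scan day 2 (1.86 to 2.38) all lay below those of scan day 1 (2.54 to 3.1), as they did for 21.9% of all genes. Saturation, on 4 of 6 of these arrays of day 2 and 1 of 3 of day 1, limits how this order can be read. Changes against untreated ran from -0.43 to 0.47 with a smallest adjusted p of 0.408. With celecoxib 1/5 every 6 h array was below and every 24 h array above both untreated arrays, and no fold is given because all 3 arrays of 24 h and 1 of the 3 at 6 h were saturated.

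The ligand genes differed in how far they could be measured. Pdgfa, which encodes the A chain, was well above background on all 20 arrays and stayed within a narrow range. Untreated cultures read -0.84 and -0.89 on the log2 scale. The 6 h arrays ran from -1.53 to -0.70 with a median of -1.19, and the 24 h arrays from -1.38 to -0.57 with a median of -0.97. Both times overlapped the untreated values, but with celecoxib 1/5 for 6 h all 3 arrays (-1.19, -1.20 and -1.53) lay below both untreated arrays. Changes against untreated ran from -0.44 to -0.05, and the smallest adjusted p was 0.395. Differences between concentrations ran from -0.21 to 0.39.

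Pdgfb, which encodes the B chain, was dim and well above background on 9 of 20 arrays. Untreated cultures read -3.61 and -4.45, the latter not well above background. At 6 h the levels were -6.56, -5.32 and -4.35 with celecoxib 1, -5.29, -3.14 and -5.52 with 1/5, and -3.35, -5.35 and -7.64 with 1/25. At 24 h they were -5.47, -5.86 and -7.14 with celecoxib 1, -3.95, -4.23 and -5.48 with 1/5, and -6.47, -6.52 and -6.31 with 1/25. None of the arrays of celecoxib 1 or 1/25 for 24 h was well above background. The spread within groups was wide, up to an SD of 2.15 with celecoxib 1/25 for 6 h.

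No change of Pdgfb passed. At 24 h the fitted differences from untreated were -2.13 ± 0.97 with celecoxib 1 (adjusted p = 0.433 in limma) and -2.41 ± 0.97 with 1/25 (adjusted p = 0.335). No bound is given, since only 1 of the 2 untreated arrays was well above background. At 6 h the differences were -1.38 with celecoxib 1 (adjusted p = 0.454) and -1.42 with 1/25 (adjusted p = 0.344), and the latter was 0.68 within scan day 1. At 24 h celecoxib 1/5 read higher than both other concentrations, by 1.61 ± 0.87 against 1 (adjusted p = 0.951) and by 1.88 ± 0.87 against 1/25 (adjusted p = 1). Of the 3 arrays of 1/5, 2 were well above background, and the arrays of 1/5 overlapped with those of 1 and not with those of 1/25.

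Pdgfc, which encodes the C chain, a ligand activated by proteolysis, read higher on all 9 arrays of 6 h than on both untreated arrays. It was well above background on 8 arrays, 7 of them at 6 h. Untreated cultures read -5.83 and -6.21, neither well above background. Its 6 h levels were -4.71, -3.95 and -3.42 with celecoxib 1, -4.03, -2.81 and -3.48 with 1/5, and -4.61, -3.38 and -3.87 with 1/25. The 24 h arrays ran from -7.13 to -4.08 with a median of -5.43, around the untreated values. Of all genes, 4.67% were above both untreated arrays on all 9 arrays of 6 h.

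With celecoxib 1/5 for 6 h Pdgfc read 2.58 ± 0.73 above untreated on the log2 scale (3 arrays against 2), or at least 2.64-fold as a bound against the dimmest probe still well above background on each untreated array. Its probe passed the filter on dim probes only through that group, which fixed the direction, so the difference is given as a description. The fit gave an adjusted p of 0.0443 in limma and 0.0523 with no filter on dim probes, in a comparison that called 6.53% of all genes, 4.41% as higher. Celecoxib 1 and 1/25 for 6 h, each with 2 of 3 arrays well above background, read 2.00 (adjusted p = 0.177) and 2.07 (adjusted p = 0.0839). The value for celecoxib 1/5 with scan day as a block was 1.63 (adjusted p = 0.348), and no array of that group was scanned with the untreated arrays. The call was lost without either untreated array (2.77 and 2.39), without any array of its own group (2.27 to 2.87), and without celecoxib 1 for 24 h replicates 1 or 2, celecoxib 1/5 for 24 h replicates 1 or 3 or celecoxib 1/25 for 24 h replicate 2, with adjusted p from 0.0332 to 0.235 over all such fits. Within scan day 1 celecoxib 1 read 1.69 (adjusted p = 0.233). The difference of 24 h from 6 h was -2.35, -2.19 and -1.24 for celecoxib 1, 1/5 and 1/25, given as a description. With celecoxib 1/5 the 6 h level was 3.57-fold the 24 h level, with each 24 h array set no lower than its dimmest probe well above background. The filter fixed this direction too. All 6 h arrays of 1/5 were scanned on day 2 and all 24 h arrays on day 1. Among the 6 h arrays, Pdgfc read 0.92 (log2) higher on day 2 than on day 1. Neither this fold nor the 2.64-fold is therefore a bound across scan days. Between concentrations at 24 h, celecoxib 1 read -1.19 ± 0.65 against 1/25 (adjusted p = 1), where 0 and 1 of the 3 arrays were well above background.

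**Figure D3:**
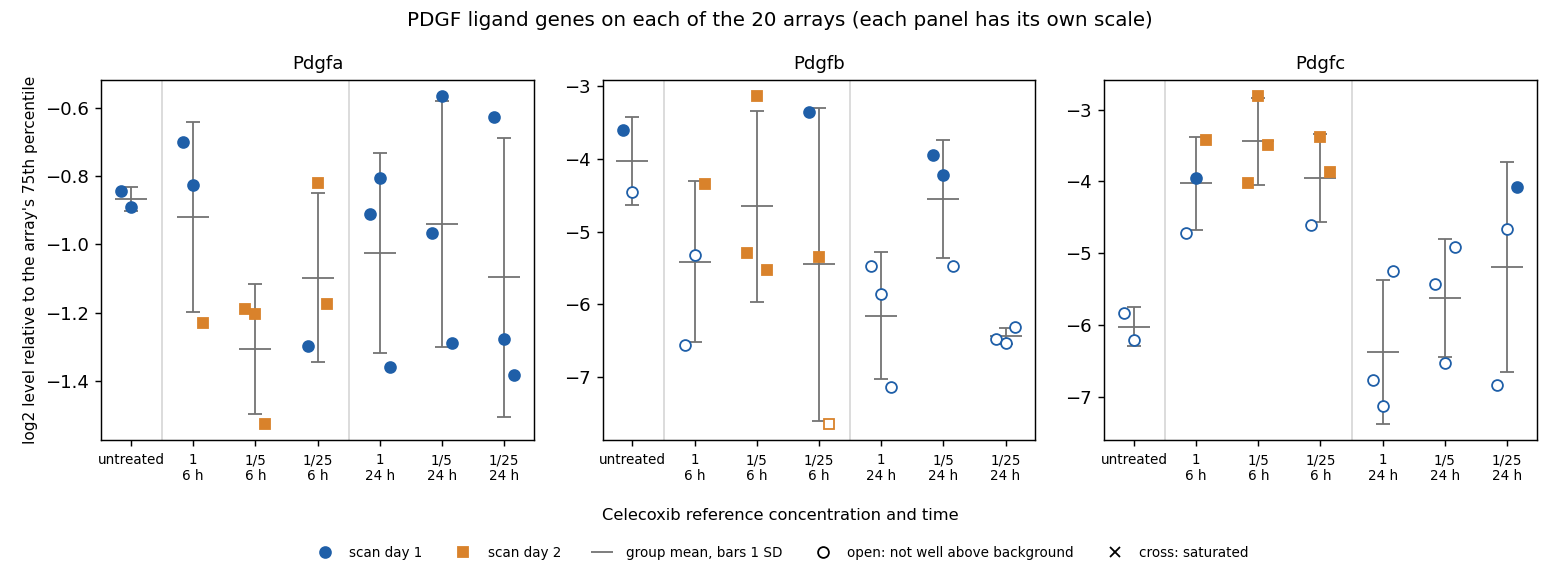
The log2 level relative to the 75th percentile of each array (vertical axis, a separate scale in each panel) is plotted for Pdgfa, Pdgfb and Pdgfc by celecoxib concentration and time (horizontal axis), with open symbols for arrays not well above background, colours for scan day, and group means with 1 SD in grey. All 9 arrays of 6 h lie above both untreated arrays for Pdgfc, where neither untreated array (-5.83 and -6.21) was well above background, and the levels of Pdgfa overlap the untreated ones except with celecoxib 1/5 for 6 h (-1.19, -1.20 and -1.53).

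Ddr2 was below both untreated arrays on 8 of the 9 arrays of 6 h. Untreated cultures read -1.48 and -0.76 on the log2 scale. Levels at 6 h were -1.80, -1.26 and -2.27 with celecoxib 1, -2.27, -2.36 and -2.83 with 1/5, and -1.79, -2.50 and -3.43 with 1/25. The 24 h arrays ran from -2.25 to -0.99 with a median of -1.33. The 6 h arrays of scan day 2 (-3.43 to -2.27) all lay below those of scan day 1 (-1.80 to -1.26), as for 21.9% of all genes.

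The difference of Ddr2 from untreated was -1.36 ± 0.46 with celecoxib 1/5 for 6 h (3 arrays against 2, adjusted p = 0.0790 in limma) and -1.45 ± 0.46 with 1/25 for 6 h (adjusted p = 0.0628). A block for scan day gave -0.41 (adjusted p = 0.681) and -0.81 (adjusted p = 0.215). The value for 1/5 passed with normexp background correction (-1.85, adjusted p = 0.0105), and that for 1/25 with probes limited to those well above background on all 20 arrays (adjusted p = 0.0469). These settings called 12.4% and 8.4% of all genes in those comparisons, against 6.53% and 5.99% without these changes. The other changes of Ddr2 against untreated did not reach 1 and did not pass. Between 24 h and 6 h the mean difference over concentrations was 0.78 ± 0.24 from all arrays, 0.14 ± 0.31 with scan day as a block, and 0.11 as the difference of means within scan day 1. The mean difference in time of Ddr2 over the concentrations was near 0, with an SE of 0.31, once scan day entered the fit.

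All 3 probes of S100a4 were saturated on all 20 arrays, so no fold can be given. The brightest probe read 2.27 and 2.46 on the log2 scale in untreated cultures, 1.90 to 2.91 at 6 h with a median of 2.35, and 2.16 to 2.67 at 24 h with a median of 2.61. These ranges overlapped. The opposite-strand probe printed above was saturated throughout as well, with 6 h values of 1.69 to 2.88 and 24 h values of 2.29 to 2.66. Changes against untreated in the brightest probe ran from -0.01 to 0.28 and none passed.

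Fbln2 was measured by a bright probe, saturated on 10 arrays, and by the dimmer junction probe printed above, unsaturated and well above background on 19 arrays. In the brighter probe, untreated cultures read 2.15 and 2.02, the 6 h arrays 1.85 to 2.93 with a median of 2.24, and the 24 h arrays 1.47 to 2.57 with a median of 2.30. In the dimmer probe, untreated cultures read -1.25 and -3.54, the 6 h arrays -6.64 to -2.09 with a median of -3.27, and the 24 h arrays -3.27 to -1.40 with a median of -2.17. The untreated arrays were far apart in the dimmer probe, and the lowest 6 h array (celecoxib 1/25 replicate 3) was not well above background.

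The probes of Fbln2 disagreed in direction in 5 of 6 comparisons with untreated, all but celecoxib 1/5 for 6 h. Against untreated at 6 h, the brighter probe read 0.33, -0.16 and 0.41 for celecoxib 1, 1/5 and 1/25 and the dimmer probe -0.66, -1.02 and -1.61. At 24 h the brighter probe read -0.26, 0.29 and 0.18 and the dimmer probe 0.68, -0.15 and -0.23. The mean difference of 24 h from 6 h was -0.13 in the brighter and 1.2 in the dimmer probe, given as a description. The SE against untreated was 0.29 for the brighter and 0.92 for the dimmer probe, and no change of either passed. In the brighter probe the 6 h arrays of scan day 2 (1.85 to 2.30) lay below those of scan day 1 (2.56 to 2.93). Of all genes, 21.9% showed this order. The brighter probe was saturated on all 6 of these arrays of day 2 and on 1 of 3 of day 1. Its order by scan day is therefore no measure of level. The dimmer probe showed the same order, with -6.64 to -3.04 on day 2 and -2.92 to -2.09 on day 1.

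**Figure D4:**
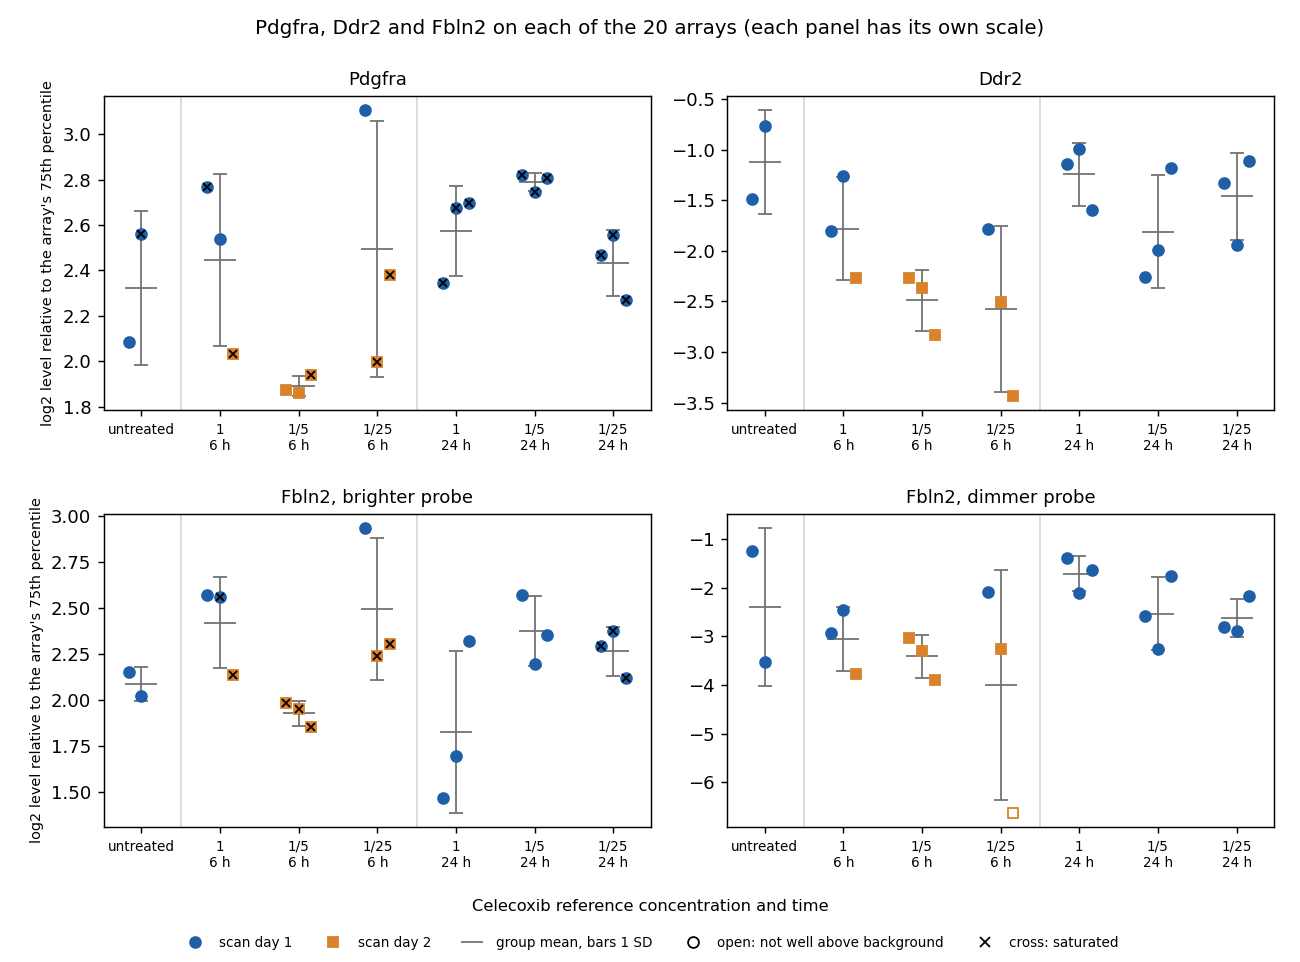
The log2 level relative to the 75th percentile of each array (vertical axis, a separate scale in each panel) is plotted for Pdgfra, Ddr2 and both Fbln2 probes by celecoxib concentration and time (horizontal axis), with circles for scan day 1, squares for scan day 2, crosses for saturated values, open symbols for arrays not well above background, and group means with 1 SD in grey. In each panel the 6 h arrays of scan day 2 lie below those of scan day 1, for Ddr2 at -3.43 to -2.27 against -1.80 to -1.26. Of all genes, 21.9% showed this order. Pdgfra and the brighter Fbln2 probe were saturated on 4 and 6 of these 6 arrays of day 2, which limits how their order can be read.

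Across the 9 genes, 2 of 54 tests against untreated passed an adjusted p of 0.05, Pdgfrb lower with celecoxib 1/25 for 6 h and Pdgfc higher with 1/5 for 6 h. The filter on dim probes fixed the direction for Pdgfc. Pdgfrb was chosen by its difference between 24 h and 6 h, and its call uses some of the same 6 h arrays. Neither call is therefore free of how the genes and probes were chosen. The comparisons called 0.429%, 6.53% and 5.99% of all genes for celecoxib 1, 1/5 and 1/25 at 6 h, and 0.0649%, 0.288% and 0.292% at 24 h, so 1 of 9 genes in a comparison that called about as large a share of all genes is no result about the genes as a group. Without adjustment 14 of the 54 had p below 0.05 in limma, which is to be read beside the counts over all genes. Among them were tests of Pdgfrb and Pdpn, chosen by their difference in time. Tests of Pdgfb and Pdgfc, kept only through celecoxib 1/5 for 6 h, were among them too. This count is therefore also not free of how the genes and probes were chosen. At 6 h p was below 0.05 for 5139 of 27735, 6672 of 27737 and 8070 of 27738 genes (celecoxib 1, 1/5 and 1/25). At 24 h it was so for 3041 of 27737, 3986 of 27734 and 3136 of 27736. With scan day as a block, with slide as a random or fixed block, with the replicate block or without either untreated array, 0 of the tests made passed. Between concentrations 0 of 54 tests passed (4 without adjustment, smallest adjusted p of 0.356), where 0% of all genes were called in 5 of the comparisons and 0.0036% for celecoxib 1 against 1/5 at 24 h. Without adjustment 818 to 3924 of all genes had p below 0.05 in these comparisons. In the interaction of concentration and time 0 of 9 passed in limma (0 without adjustment), where 0% of all genes were called.

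**Figure D5:**
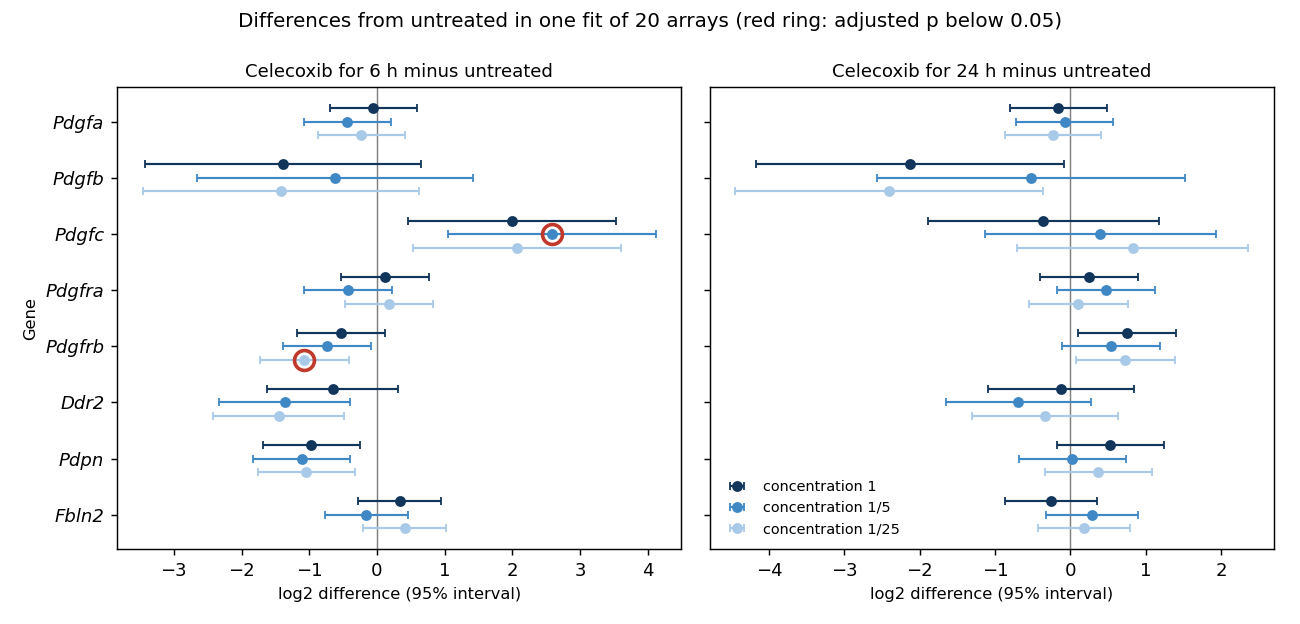
The log2 difference from untreated with its 95% interval (horizontal axis) is plotted for 8 of the 9 genes (vertical axis; S100a4, saturated on all arrays, is left out) at 6 h and at 24 h, with a shade of blue for each celecoxib concentration and a red ring where the adjusted p is below 0.05. At 6 h Pdgfc is to the right of 0 (2.00, 2.58 and 2.07), and Pdgfrb, Ddr2 and Pdpn are to its left, with Pdgfc at 1/5 and Pdgfrb at 1/25 ringed.

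Other genes of PDGF signalling (38 listed, among them ligand and ligand-activating genes, adaptors, kinases, phosphatases and transcription factors) gave 34 that could be tested. Against untreated 1 passed, Acp1, a low molecular weight phosphatase that acts on the receptors, at 1.73 with celecoxib 1/5 for 6 h (adjusted p = 0.0284 in limma), or 0.54 with scan day as a block (adjusted p = 0.409). In the other 5 comparisons with untreated 0 of 34 passed. Scan day as a block changed these calls: 1 gene was lower with celecoxib 1 for 6 h, 1 with 1/5 for 6 h and 3 with 1/25 for 6 h, and 1 was higher with 1/5 for 24 h. The share of all genes called with that block is not given here. Such counts, here and for the lists below, are therefore no result about a list as a group. Shc1 was among the lower genes at each concentration in that fit, at -1.52, -1.69 and -1.49 (adjusted p = 0.00352, 0.0292 and 0.00687 in limma). The median change of the list ran from -0.39 with celecoxib 1/25 for 6 h to 0.19 with celecoxib 1 for 24 h, where the medians of all genes were -0.18 and 0.00. Pdgfd, the gene of the remaining ligand, read -0.11, -1.15 and -1.11 at 6 h and -0.27, -0.65 and -0.94 at 24 h for celecoxib 1, 1/5 and 1/25, and did not pass.

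Between 24 h and 6 h, over the concentrations, 5 of these 34 genes passed as higher and 2 as lower, where 20.3% of all genes passed, 9.43% as higher and 10.9% as lower. The median of the list was 0.27 and of all genes 0.10. Grb2, the adaptor that links receptors to Ras, was 0.53 higher (adjusted p = 0.0166 in limma). Map2k1, a MAP kinase kinase, fell by 0.93 (adjusted p = 0.0276) and Stat3 fell by 1.30 (adjusted p = 0.0297). With scan day as a block these 3 read 0.33, 0.16 and 0.58 and did not pass, so that Map2k1 and Stat3 turned sign. Shc1, an adaptor named after its values were seen, passed in that fit at 0.81 (adjusted p = 0.0258).

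Immediate early and feedback genes of growth factor signalling gave 14 of 15 tested. Against untreated 0 of 14 passed at each concentration and time. With a block for scan day, 2 were higher and 1 lower with celecoxib 1 for 6 h, 1 higher with 1/5 for 6 h and 2 higher and 2 lower with 1/25 for 6 h. The share of all genes called with that block is not given here. Dusp6, a MAP kinase phosphatase, was the gene higher at all 3 concentrations in that fit (1.37, 1.62 and 1.2, adjusted p = 0.0108, 0.0454 and 0.0256 in limma), and Spry4, an inhibitor of receptor tyrosine kinase signalling, was among the lower ones with 1/25 (-2.25, adjusted p = 0.0182). Between 24 h and 6 h, where 20.3% of all genes passed (9.43% higher and 10.9% lower), 1 of 14 was higher and 3 lower, with a median of 0.08 against 0.10 for all genes. Fos was 1.54 higher (adjusted p = 0.000765 in limma), and Fosl1 (-1.48, adjusted p = 0.000841), Dusp6 (-0.82, adjusted p = 0.00339), and Egr2 (-0.62, adjusted p = 0.0235) were lower. With scan day as a block the 3 lower genes passed again, at -1.86, -1.22 and -0.97, and Fos read 1.04 (adjusted p = 0.105).

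Among 14 other fibroblast markers, all tested, 1 passed against untreated. Mfap5, a microfibril protein, rose with celecoxib 1/25 for 6 h (1.26, adjusted p = 0.0163 in limma), and did so with scan day as a block (1.12, adjusted p = 0.0160). In the other comparisons with untreated 0 of 14 passed, while that block called Lum lower with celecoxib 1/25 for 6 h (-1.64, adjusted p = 0.0372). Between 24 h and 6 h, where 20.3% of all genes passed, Lum, a matrix proteoglycan (1.15), Tcf21, a transcription factor of cardiac fibroblasts (1.45), and Fbln1 (0.88) were higher and Mfap5 lower (-0.45), with adjusted p of 0.00304, 0.0325, 0.0157 and 0.0219. With scan day as a block Lum passed, at 1.66 (adjusted p = 0.0108), and the other 3 did not. The median difference of the list was 0.23, against 0.10 for all genes, and with celecoxib 1/5 for 6 h against untreated it was -0.45, against -0.19. The summed level of the list, in units of the 75th percentile, was 22.3 to 24.3 in untreated cultures, 18.2 to 28.0 at 6 h and 20.2 to 28.5 at 24 h.

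Markers of other cells that carry Pdgfrb or Pdpn were read beside them, and their part in the results was not tested. For each list below, calls between 24 h and 6 h stand beside the 20.3% of all genes that passed in that comparison. The share of all genes called with scan day as a block is not given here. For smooth muscle and pericytes, where PDGFR-beta is typical, 10 of 11 markers were tested and 0 passed against untreated. In the fit with scan day as a block Cspg4, a proteoglycan of pericytes, was higher with celecoxib 1 for 6 h (1.24, adjusted p = 0.0446 in limma) and lower at 24 h than at 6 h (-1.09, adjusted p = 0.0382), and Abcc9 was higher with 1/25 for 24 h (1.34, adjusted p = 0.0291). Between 24 h and 6 h Kcnj8 and Abcc9, subunits of a potassium channel of pericytes, were 1.15 (adjusted p = 0.0164 in limma) and 0.49 (adjusted p = 0.0447) higher. They read 0.01 and 0.03 with scan day as a block. The median difference of the list in time was 0.30, against 0.10 for all genes. The summed level of the list was 15.8 to 19.5 in untreated cultures, 15.1 to 27.9 at 6 h and 15.7 to 21.9 at 24 h. For lymphatic endothelium, where podoplanin is typical, 3 of 4 markers were tested, 0 passed, and the summed level was 0.459 to 0.842 untreated, 0.266 to 0.509 at 6 h and 0.384 to 0.847 at 24 h. Prox1, the transcription factor that defines these cells, was well above background on 0 arrays.

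For epicardium and mesothelium 5 of 7 markers were tested. Aldh1a2, a retinoic acid synthesis enzyme, rose at 6 h with celecoxib 1/5 (1.89, adjusted p = 0.0167 in limma) and 1/25 (2.02, adjusted p = 0.0130). With a scan day block these were 1.38 (adjusted p = 0.124, no longer passing) and 1.68 (adjusted p = 0.0187), and celecoxib 1 for 6 h passed too (1.31, adjusted p = 0.0368). Between 24 h and 6 h Aldh1a2 was lower (-1.34), while Upk3b (1.23) and Msln (0.59) were higher. None of these 3 passed with that block, at -1.0 (adjusted p = 0.0511), 0.19 and 0.41. The summed level was 4.37 to 6.25 untreated, 6.03 to 9.03 at 6 h and 5.16 to 8.49 at 24 h.

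For cardiomyocytes 10 of 11 markers were tested, 0 passed against untreated, and Ttn, the sarcomere protein titin, was lower at 24 h than at 6 h (-0.75, adjusted p = 0.0158 in limma). The blocked fit gave -0.42 (adjusted p = 0.439). The summed level was 23.2 to 24.6 untreated, 17.7 to 40.9 at 6 h and 15.8 to 37.9 at 24 h. For blood endothelium 4 of 8 were tested and Kdr was lower at 24 h than at 6 h (-0.46, or -0.54 and not passing with scan day as a block, adjusted p = 0.0896), with a summed level of 3.18 to 3.34 untreated, 3.46 to 5.31 at 6 h and 2.67 to 3.69 at 24 h.

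For macrophages and leukocytes 7 of 8 were tested. Ctss, a lysosomal protease, passed as higher than untreated in 5 of 6 comparisons, by 2.10 to 2.51, and Csf1r was 1.43 higher at 24 h than at 6 h. With the scan day block Ctss passed in 4 of them and not with celecoxib 1/5 for 6 h (2.05, adjusted p = 0.0684), and Csf1r read 0.60 (adjusted p = 0.564). Cd163, a scavenger receptor of macrophages, was lower in that fit with celecoxib 1 and 1/25 for 6 h (-2.27 and -2.22, adjusted p = 0.0227 and 0.0333). Their summed level was 2.37 to 2.64 untreated, 1.73 to 3.09 at 6 h and 2.02 to 2.42 at 24 h. For erythroid cells 2 of 4 were tested, with a summed level of 3.40 to 4.25 untreated, 0.866 to 3.32 at 6 h and 3.35 to 5.84 at 24 h. Emcn, Itgam and Hbb were well above background on 0 arrays.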

How the data were processed

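Per the labels, total RNA was labelled with Cy3 and hybridised to Agilent arrays; per the file headers, Feature Extraction 9.5.3.1 read the scans. The deposited scanner files hold spot intensity on a linear scale, and the value table deposited by the authors holds a linear ratio. Checked on the scanner files, 99.561% of its 820240 values were within 0.01 (log2) of the processed signal over the array median, again over the mean of both untreated arrays. Its column medians were 0.826 to 1.27.

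The processed signal was taken to log2, less the log2 of the 75th percentile of the array. Outlier spots were left out and spots of a probe averaged. Probes that all arrays of 1 group or more read well above background were kept (31776), and the brightest stood for a gene. A single limma 3.58.1 fit (R 4.3.3) with 7 group means used all 20 arrays, 13 residual degrees of freedom, two-sided moderated tests and Benjamini-Hochberg adjustment over all genes of a comparison. It was tested on simulated data. Differences of 24 h from 6 h were not tested for the 9 genes. The members and lists were chosen with earlier results of these data known. Every member is named, a change with its test where it passed or reached 1 (log2). List genes were named where they passed, up to 4 per list and kind of comparison, by adjusted p, and the 5 genes most alike by Pearson r; a few list genes and a probe sequence are not reported here. Alternatives covered scaling, background correction, the filter, outlier spots, the probe rule, the deposited ratios, scan day, slide, replicate number, the arrays fitted and each array left out.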

Additional observations from a re-analysis of the deposited data

Results flagged for a closer look

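Among the members, 6 cases had all 3 arrays of a celecoxib concentration below both untreated arrays at 6 h and above both at 24 h. The difference between the times was not tested. The share of all genes with this pattern is not given here, so the count is no result about the genes as a group. For Pdgfrb the pattern held at every concentration. Its 24 h minus 6 h difference on the log2 scale was 1.28 at celecoxib 1, 1.27 at 1/5 and 1.81 at 1/25. For Pdpn the pattern held at celecoxib 1, where the difference was 1.5. Pdgfrb and Pdpn were chosen by their difference between 24 h and 6 h, so their cases are not free of that choice. For Pdgfra at celecoxib 1/5 the difference was 0.90, with all 3 arrays of 24 h and 1 of 6 h saturated, so it is not read as a fold. For Fbln2 at celecoxib 1/5 the difference was 0.45 in the brighter probe, with all 3 arrays of 6 h saturated. Saturation can make these 6 h values read too low, so neither their place below untreated nor the 0.45 is a measured change. At this concentration all 6 h arrays were scanned on day 2 and all 24 h arrays on day 1.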

How the results depend on the processing

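The number of member tests that passed against untreated was 2, and changed with the processing. It was 5 with quantile normalisation, where 12.7% and 8.06% of all genes passed with celecoxib 1/5 and 1/25 for 6 h. It was 0 with no filter on dim probes, with scan day as a block, with only the arrays of scan day 1, with slide as a random block, with slide as a fixed block and with the replicate block. Without each array in turn it ran from 0 to 6. It was 0 without untreated replicate 1 or 2, without any array of celecoxib 1/5 for 6 h, and without celecoxib 1 for 24 h replicates 1 or 2, celecoxib 1/5 for 24 h replicates 1 or 3 or celecoxib 1/25 for 24 h replicate 2. It was 1 without celecoxib 1/5 for 24 h replicate 2 or celecoxib 1/25 for 24 h replicates 1 or 3, 4 without celecoxib 1 for 6 h replicate 3 and 6 without celecoxib 1/25 for 6 h replicate 1. With 4 calls, 10.6% and 10.4% of all genes passed with celecoxib 1/5 and 1/25 for 6 h. With 6 calls these shares were 10.9% and 13.3%, and with the 2 calls 6.53% and 5.99%. Such counts are therefore no result about the genes as a group. The cause of the changes in number was not tested. Calls between concentrations and in the interaction stayed at 0 in all settings that gave a value. The mean 24 h minus 6 h difference of Pdgfrb ran from 1.21 to 1.52 over 12 alternatives and from 1.37 to 1.55 without each array, and that of Pdpn from 1.05 to 1.36 and from 1.28 to 1.46. Both genes were chosen by this difference on the same arrays. Changes that turned sign were Pdgfb at celecoxib 1/25 for 6 h, 0.68 within scan day 1, and Pdgfc at celecoxib 1 against 1/25 for 24 h, 0.068 with slide as a fixed block; the cause was not tested. Over all genes the count called ran from 2 to 3514 at celecoxib 1/5 for 6 h, from 0 to 4625 at 1/25 for 6 h and from 0 to 2273 at 1 for 6 h, against 1812, 1662 and 119. At 24 h it ran from 3 to 245, 0 to 387 and 0 to 238 for celecoxib 1, 1/5 and 1/25, against 18, 80 and 81. For 24 h against 6 h over the concentrations it ran from 314 to 8879, against 5632.

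Replicate numbers were not shown to pair the arrays: 9 of 57 pairs of arrays with the same number had deviations correlated above 0.1 (mean -0.0041), and for 8 arrays the best match had their own number. Signal over background limits Pdgfb and Pdgfc, and saturation limits Pdgfra, S100a4 and the brighter Fbln2 probe.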
